A study of Mus musculus with 6 samples.

Results

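Adipokines are proteins that fat cells release into blood and tissue, and 8 transcripts of this class other than adiponectin were followed in whole mouse lung: Cfd, Lep, Retn, Rbp4, Nampt, Rarres2 and Angptl4, which encode secreted proteins, and Lepr, which encodes the leptin receptor. These 8 genes were selected on earlier results of the same wild-type against knockout comparison, in which Cfd, Lep and Retn were already known to be low, so their differences between genotypes are given as a description and carry no test. All 8 were found by gene symbol among the 54532 genes of the deposited count table, and all 8 passed the filter on low counts, which left 18689 genes. Lep passed it through the WT libraries alone.

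The libraries came from perfused whole lungs of untreated mice aged 2 months. There were 3 WT libraries, from purchased C57BL/6J mice, and 3 libraries labelled ISM1-KO, from ISM1-/- mice that were bred in-house on the C57BL/6J background with a knockout of the gene for the secreted protein isthmin 1. Genotype and source of the animals therefore cannot be told apart. Total counts ran from 37606133 to 42345042 per library, and every pair of libraries differed by more than counting noise. Ism1, the targeted gene and itself an adipokine, still had reads in every library, with 3098, 3215 and 2975 in WT against 2784, 2508 and 2953 in ISM1-KO, a log2 fold change of -0.19 with a standard error (SE) of 0.0709. A count over the whole gene does not separate the altered part of the transcript from the rest, so it does not check the labels, and ISM1-KO is used here as the name on the library.

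In fat depots, leptin, adipsin (the product of Cfd) and resistin (the product of Retn) are made mainly by mature white adipocytes in mice, and their transcripts serve as markers of that cell. Leptin reports fat stores to the brain through Lepr, a cytokine receptor that signals through JAK2 and STAT3. Chemerin, retinol-binding protein 4, NAMPT and ANGPTL4 are also called adipokines, but liver, endothelium, immune cells and other cells make them too. Perfused lungs taken whole can carry some fat around the large airways and vessels, beside the many cell types of the lung itself.

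The 8 transcripts divided by size of the difference. Cfd, Lep and Retn were 4.29-fold, 4.57-fold and 2.63-fold lower in the libraries labelled ISM1-KO, Rbp4 was lower by a smaller amount, and Lepr, Nampt, Rarres2 and Angptl4 had overlapping genotypes. Counts were scaled to CPM (counts relative to the library total after TMM normalization) and fitted across all genes with edgeR, and a gene was counted as called at an adjusted p under 0.1 with at least a 2-fold change. By this rule 3 of the 8 members were called, all lower, where 0.567% of all genes tested were called in either direction, 0.284% lower and 0.284% higher. Without the fold minimum 4 members were called, beside 4.72% of all genes. The libraries of the genotypes did not overlap for 4 members, all lower in ISM1-KO, beside 12.3% of all genes that were lower without overlap and 9.33% that were higher. Because the members were chosen on this comparison, these shares describe them and support nothing further. In bulk tissue, fewer cells of a type and less RNA per cell cannot be told apart, and this holds for every difference described here.

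**Figure D1:**
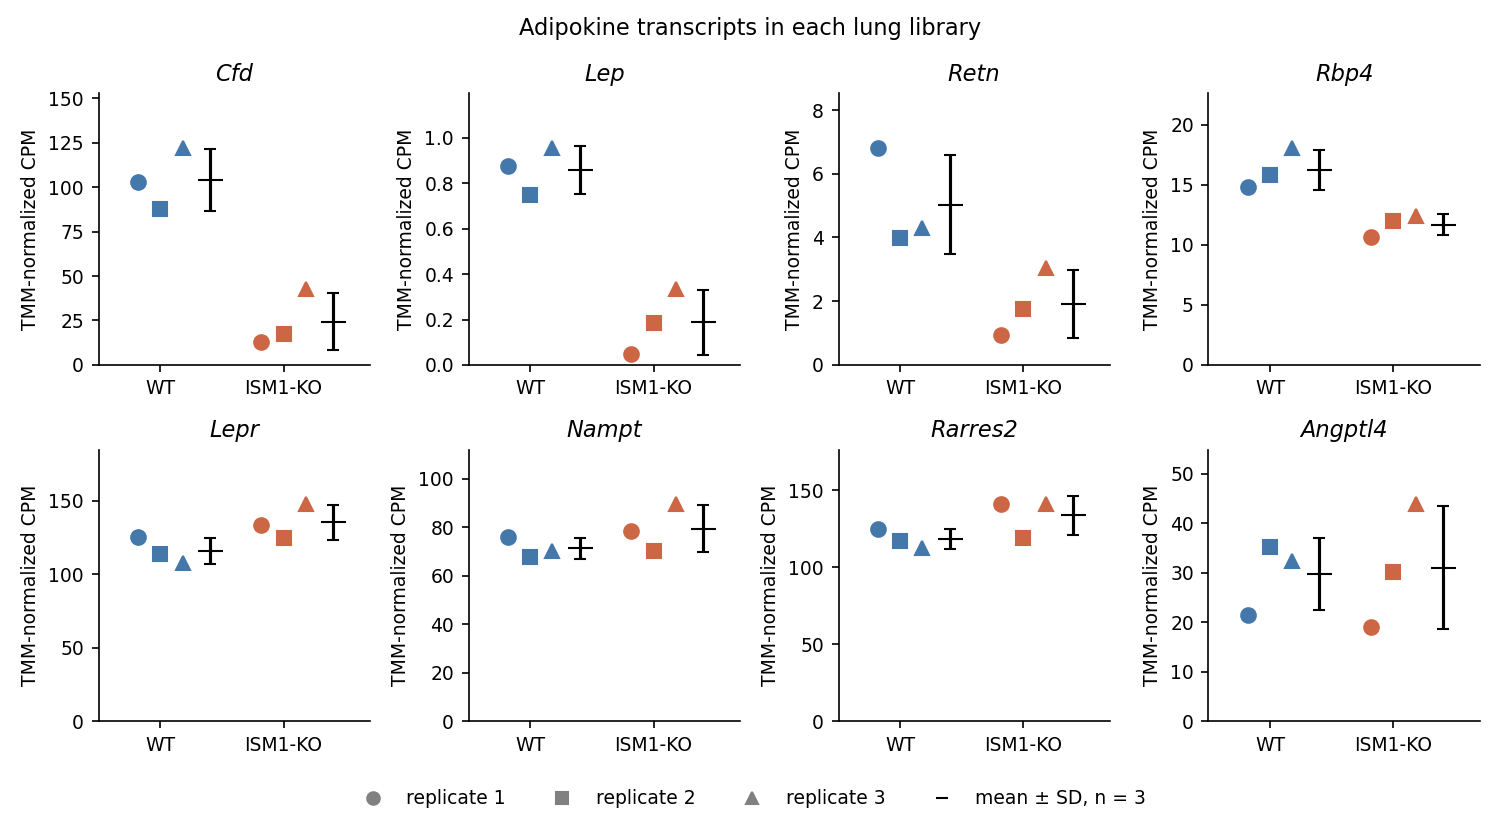
TMM-normalized CPM of the 8 adipokine transcripts (vertical axes, each from 0) in the 3 WT libraries (blue) and the 3 ISM1-KO libraries (orange), with one symbol per replicate and the mean ± SD of each genotype in black. The genotypes do not overlap for Cfd, Lep, Retn and Rbp4, ISM1-KO replicate 3 lies nearest to WT for Cfd, Lep and Retn, and the other 4 transcripts overlap.

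Cfd (ENSMUSG00000061780, GRCm38 chr10:79890853-79892655, forward strand) encodes adipsin, or complement factor D, the serine protease that cleaves factor B in the alternative complement pathway. The WT libraries held 3875, 3636 and 4725 reads of it, and the ISM1-KO libraries 549, 654 and 1667. In CPM this was 104 ± 17.3 (SD, n = 3) against 24.3 ± 16.1 (SD, n = 3), a log2 fold change of -2.10 (SE 0.358). Every ISM1-KO library lay under every WT library, at 12.4%, 16.5% and 41.0% of the WT mean. Within ISM1-KO the highest library exceeded the lowest 3.31-fold, while within WT the same ratio was 1.40. Without ISM1-KO replicate 3, the log2 fold change was -2.79.

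Lep (ENSMUSG00000059201, GRCm38 chr6:29060220-29073877, forward strand) encodes leptin and was the scarcest of the 8 transcripts. WT had 33, 31 and 37 reads against 2, 7 and 13 in ISM1-KO, or 0.860 ± 0.106 and 0.188 ± 0.143 CPM (SD, n = 3 each). The log2 fold change was -2.19 (SE 0.482). With so few reads the counting error is wide. The exact Poisson 95% interval of the 2 counts in ISM1-KO replicate 1 ran from 0.242 to 7.22, that of the 13 counts in ISM1-KO replicate 3 from 6.92 to 22.2, and that of the 31 counts in WT replicate 2 from 21.1 to 44. The last 2 intervals met, although the 3 WT counts all lay above the 3 ISM1-KO counts. These intervals cover counting error only. Without ISM1-KO replicate 3 the log2 fold change was -2.90, and the call of Lep was lost in DESeq2.

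Retn (ENSMUSG00000012705, GRCm38 chr8:3655770-3660110, forward strand) encodes resistin, a cysteine-rich hormone of adipocytes in mice. Its reads numbered 257, 165 and 166 in the WT libraries, against 40, 67 and 119. Here WT replicate 1 stood above the other WT libraries and ISM1-KO replicate 3 came within reach of them, at 60.7% of the WT mean, so the gap between genotypes was the narrowest of these 3 genes. In CPM the levels were 5.03 ± 1.56 and 1.92 ± 1.06 (SD, n = 3 each), a log2 fold change of -1.39 (SE 0.36). With single libraries left out it ran from -1.90 (without ISM1-KO replicate 3) to -1.06, and the call stood in 1 of the 6 fits, the one without ISM1-KO replicate 3. Cfd was called in all 6 of these fits, and Lep in those without WT replicate 1 and without ISM1-KO replicate 3.

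The sequences just upstream of these 3 genes are shown because their transcripts were low together, and because the start of Lep holds a match to the pattern TTNNGCAA, which binding sites of C/EBP factors, regulators of the adipocyte programme, can carry. Each line gives the 250 bases before the RefSeq transcript start on the gene's own strand, 5′ to 3′ (GRCm38.p6, all forward strand), and capitals mark a match to TATAAA or TTNNGCAA on either strand.
Cfd, chr10:79890603-79890852: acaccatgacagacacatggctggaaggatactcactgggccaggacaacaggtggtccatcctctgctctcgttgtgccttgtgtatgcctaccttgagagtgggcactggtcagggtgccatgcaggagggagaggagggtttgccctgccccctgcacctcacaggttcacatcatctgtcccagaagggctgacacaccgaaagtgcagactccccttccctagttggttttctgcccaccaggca
Lep, chr6:29059971-29060220: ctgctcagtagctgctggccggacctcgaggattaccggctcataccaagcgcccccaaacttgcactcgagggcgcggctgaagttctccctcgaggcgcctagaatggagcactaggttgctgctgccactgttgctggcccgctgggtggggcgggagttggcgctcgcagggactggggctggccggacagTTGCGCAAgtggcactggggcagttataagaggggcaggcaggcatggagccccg
Retn, chr8:3655520-3655769: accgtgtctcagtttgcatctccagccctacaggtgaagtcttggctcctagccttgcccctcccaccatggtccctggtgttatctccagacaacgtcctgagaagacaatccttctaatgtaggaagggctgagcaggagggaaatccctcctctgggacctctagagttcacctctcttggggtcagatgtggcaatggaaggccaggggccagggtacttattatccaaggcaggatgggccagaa
The match upstream of Lep begins 55 bases before the transcript start. A match to TTNNGCAA was present in 9.56% of 32851 such windows across mouse genes and a match to TATAAA in 12.4%, and the Cfd and Retn windows held neither. The base composition of the windows differed among the 3 genes, since the Lep window had 16 CpG and a GC content of 65.6%, while those of Cfd and Retn had 2 CpG each and 57.6% and 54.8% GC. The median window had 6 CpG and 52.4% GC. RefSeq windows were matched for 6 of the 8 members, with 2 start sites each for Lepr and Rbp4. The Nampt window (75.6% GC, 27 CpG, 5 matches to GGGCGG on either strand) was CpG-rich beside Cfd and Retn, and GGGCGG occurred at least once in 32.7% of all windows. One of the 2 Rbp4 windows, chr19:38124812-38125061 on the reverse strand, held both a TATAAA and a TTNNGCAA match and 28 CpG, and the other held 5 CpG. A further pattern, AGGTCA, was found in 14% of windows and in no window of Cfd, Lep or Retn. A match is a description of letters and not evidence that a factor binds there.

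Rbp4 (ENSMUSG00000024990, GRCm38 chr19:38116620-38125321, reverse strand) encodes the retinol carrier of plasma. WT libraries held 557, 657 and 699 reads, against 454, 454 and 483 for ISM1-KO. The genotypes did not overlap, and the 3 ISM1-KO libraries lay close together, at 65.8%, 73.7% and 76.3% of the WT mean. In CPM the levels were 16.2 ± 1.69 and 11.7 ± 0.888 (SD, n = 3 each), a log2 fold change of -0.48 (SE 0.102). Its level in ISM1-KO was 0.719 of WT, a 1.39-fold difference, which was under the fold minimum. It was the member nearest to the fold minimum among those not called, and Retn, at a 2.63-fold difference, was the nearest among those called. With each library left out the log2 fold change kept between -0.54 and -0.39.

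Lepr (ENSMUSG00000057722, GRCm38 chr4:101717404-101815352, forward strand) had 4733, 4724 and 4178 reads in WT, against 5668, 4737 and 5770. The CPM were 116 ± 8.91 and 135 ± 11.7 (SD, n = 3 each), with a log2 fold change of 0.23 (SE 0.0790). ISM1-KO replicate 2 fell inside the WT range, so the receptor transcript overlapped between genotypes while that of its ligand did not. Nampt (ENSMUSG00000020572, GRCm38 chr12:32819545-32853349, forward strand), the rate-limiting enzyme of NAD salvage and also the secreted protein visfatin, had 2859, 2802 and 2715 reads in WT against 3336, 2659 and 3492 in ISM1-KO, or 71.2 ± 4.24 and 79.3 ± 9.74 CPM. Its log2 fold change was 0.16 (SE 0.0894), and it was 0.06 without ISM1-KO replicate 3. The annotated span of Gdap10, with a mean of 333 counts, lies within Nampt on the same strand, so reads there could be split between them.

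Rarres2 (ENSMUSG00000009281, GRCm38 chr6:48569696-48572789, reverse strand) encodes chemerin, an attractant of macrophages, dendritic cells and natural killer cells. WT libraries held 4707, 4867 and 4339 reads and ISM1-KO libraries 5993, 4520 and 5490, with 118 ± 6.36 and 134 ± 12.5 CPM (SD, n = 3 each). The log2 fold change was 0.18 (SE 0.0769), and ISM1-KO replicate 2 again lay inside the WT range. Its annotated end overlaps Lrrc61 on the opposite strand (mean 771 counts), and although the libraries were strand-specific, whether the counting used the strand is not given in the sources used here, so the assignment of reads in the shared stretch is uncertain.

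Angptl4 (ENSMUSG00000002289, GRCm38 chr17:33773750-33781575, reverse strand) encodes an inhibitor of lipoprotein lipase that fasting and glucocorticoids induce. It had the widest spread within genotypes among the 4 overlapping members, with 811, 1464 and 1252 reads in WT against 810, 1140 and 1712. WT replicate 1 and ISM1-KO replicate 1 were the lowest library of each genotype. The CPM were 29.7 ± 7.26 and 31.0 ± 12.4 (SD, n = 3 each), the log2 fold change was 0.06 (SE 0.264), and with single libraries left out it changed sign, from -0.28 (without ISM1-KO replicate 3) to 0.32.

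Across the 8 members, the median log2 fold change was -0.21, beside 0.0043 over all genes tested, with 4 members lower and 4 higher in ISM1-KO. ISM1-KO replicate 3 was the highest of the 3 ISM1-KO libraries for every member other than Rarres2, and it was the highest for 40.4% of all genes tested.

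The levels of different genes can be compared only per transcript length, for which the deposited FPKM were used. In WT, Cfd (117 ± 19.5 FPKM) and Rarres2 (110 ± 5.93 FPKM) headed the order and overlapped each other. Lepr (52.8 ± 4.08 FPKM) and Nampt (35.9 ± 2.18 FPKM) followed without overlap, then Angptl4 (19.8 ± 4.81 FPKM) and Rbp4 (15.0 ± 1.56 FPKM), which overlapped. Retn, at 5.01 ± 1.55 FPKM, and Lep, at 0.468 ± 0.0583 FPKM, were lowest (SD, n = 3 for each). So Cfd, Lep and Retn did not share a level: in WT lung Cfd was among the most abundant of the 8 and Lep the least.

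In the libraries labelled ISM1-KO the order changed at its head. Rarres2 was first at 123 ± 11.2 FPKM, followed by Lepr at 61.4 ± 4.71 and Nampt at 39.8 ± 4.52 FPKM. Cfd moved to the fourth place at 26.9 ± 17.5 FPKM, where its 3 libraries (14.5, 19.3 and 46.9 FPKM) overlapped those of Nampt above and of Angptl4 (20.4 ± 8.0 FPKM) below. Rbp4 (10.7 ± 0.729), Retn (1.89 ± 1.03) and Lep (0.101 ± 0.0763 FPKM) kept the last 3 places without overlap. The order depends on the length used, since the FPKM imply a length of 1078 bases for Rarres2 where the deposited gene length is 2656, and with CPM per kilobase of the latter 4 of the 8 genes kept their place in the order over all 6 libraries.

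**Figure D2:**
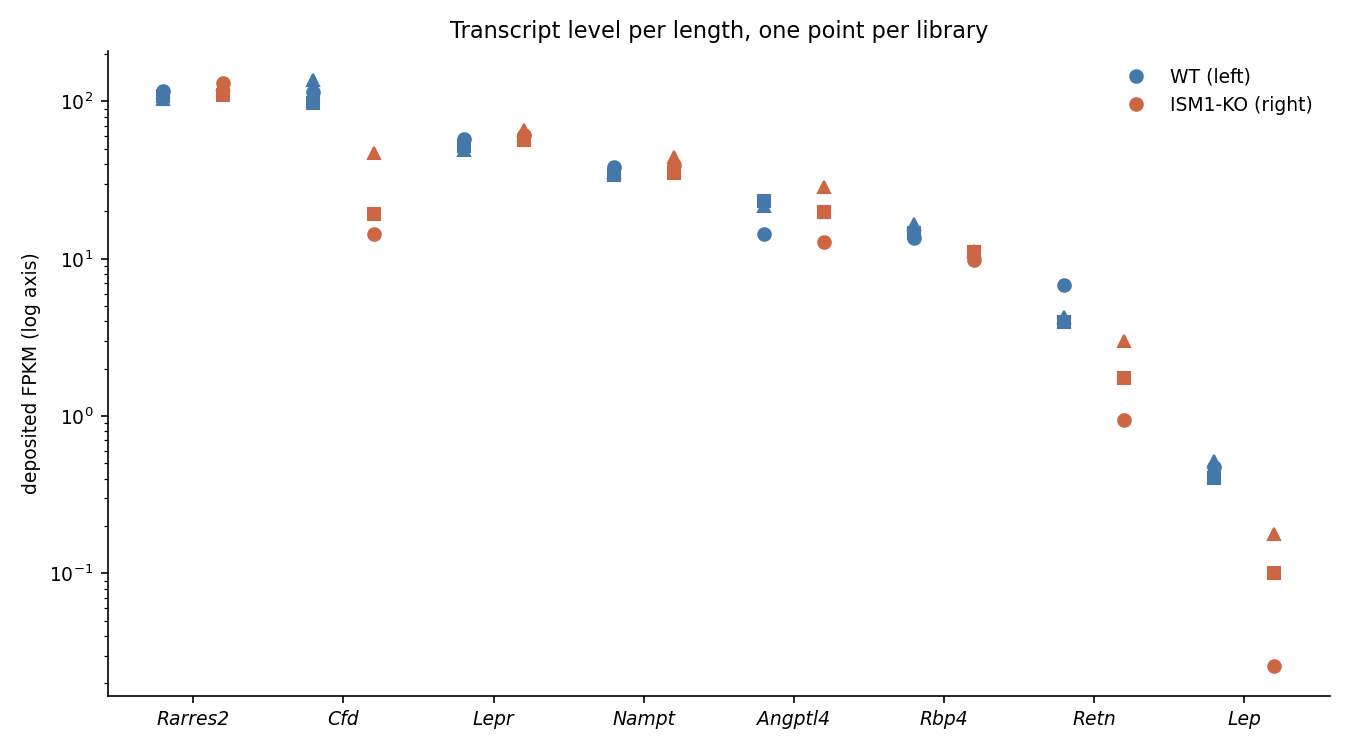
Deposited FPKM on a log axis for the 8 transcripts, ordered by mean over the 6 libraries, with one point per library (WT blue on the left, ISM1-KO orange on the right, symbol shape for the replicate number). Rarres2 lies near 100 FPKM in both genotypes, Cfd drops from the level of Rarres2 to between 14.5 and 46.9 FPKM, and Lep stays under 1 FPKM in every library.

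The identity of the tissue was checked with marker lists. Of 6 surfactant and alveolar type 2 markers, and of 6 alveolar macrophage and 7 capillary endothelial markers, none had an adjusted p under 0.1 in edgeR or DESeq2, while 5 of the 19 had an unadjusted p under 0.05 in edgeR, and the summed alveolar type 2 markers stood between 19831 and 21482 CPM in every library. Adipocyte markers were present but scarce, with a sum of 124 to 155 CPM in WT and 80.8 to 107 CPM in ISM1-KO, and none of the 12 was at 0 in any library. Marker lists of other cells that whole lungs could carry are given next, with the number of genes that passed in each. Their part in the members' differences was not tested. All 8 cardiomyocyte markers had lower means in ISM1-KO, with a median log2 fold change of -1.11. All 8 had an unadjusted p under 0.05 in edgeR, and 4 were lower without overlap, beside 12.3% of all genes. The share of all genes under that unadjusted threshold was not counted, for this or any other list. Of the 8, Myl7 alone was called (log2 fold change -1.11, adjusted p = 0.097, quasi-likelihood test of edgeR with Benjamini-Hochberg adjustment, as for every adjusted p given here). DESeq2 called none of the 8 cardiomyocyte markers. Their sum was 1444 CPM in WT replicate 1, 448 and 536 CPM in the other WT libraries, and 240, 336 and 481 CPM in ISM1-KO. Of the brown adipocyte markers, Cox8b, a subunit of cytochrome c oxidase, was called lower (log2 fold change -1.13, adjusted p = 0.0538). Like the summed cardiomyocyte markers, Cox8b was highest in WT replicate 1, at 4.83 CPM against 2.43 and 3.10 CPM in the other WT libraries. Whether its reads came from brown fat was not tested. Ucp1 gave 232, 2 and 24 counts in WT against 5, 4 and 3, so the genotypes overlapped and WT replicate 1 stood far above the rest. It did not pass in edgeR (log2 fold change -4.45, adjusted p = 0.139), while DESeq2 called both Ucp1 and Cox8b. Ucp1 met the filter on low counts through WT libraries alone.

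Of 5 adventitial fibroblast markers, 3 had an adjusted p under 0.1, all lower in ISM1-KO: Pi16 (log2 fold change -0.97, adjusted p = 0.00226), Clec3b (-0.40, adjusted p = 0.0252) and Dpt (-0.26, adjusted p = 0.0471). Their summed list stood at 388 to 410 CPM in WT and 309 to 326 CPM in ISM1-KO. Over all genes tested, 4.72% had an adjusted p under 0.1 in either direction. Among 6 alveolar fibroblast markers the ligand gene Wnt2 alone passed, with a log2 fold change of -0.50 (adjusted p = 0.0204). Of 8 neutrophil markers 6 were tested and 3 were called, all higher in ISM1-KO, beside 0.284% of all genes called higher. S100a8 (log2 fold change 1.49, adjusted p = 0.0163), S100a9 (1.46, adjusted p = 0.0163) and the chemokine receptor gene Cxcr2 (1.21, adjusted p = 0.0471) were called higher, Csf3r was under 2-fold (0.70, adjusted p = 0.097), and Mmp8 (0.23, adjusted p = 0.55) and Mmp9 (0.36, adjusted p = 0.394) overlapped between genotypes and did not pass. The list summed to 51.1 to 67.8 CPM in WT and 80.0 to 136 CPM in ISM1-KO. All 6 mesothelial markers had higher means in ISM1-KO with overlapping libraries, and none passed in edgeR, while 2 had an unadjusted p under 0.05 and DESeq2 gave 1 an adjusted p under 0.1 without calling it (Msln, named after its values were seen).

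The adipocyte markers moved in the direction of Cfd, Lep and Retn. Of the 12 tested, 8 were called lower in ISM1-KO, none was called higher, and 10 were lower without overlap, with a median log2 fold change of -1.61 beside 0.0043 over all genes. Over all genes tested, 0.284% were called lower and 12.3% were lower without overlap. The list was written with earlier results of these data known. Plin1, the coat protein of the adipocyte lipid droplet, had 692, 519 and 505 reads in WT against 119, 108 and 245 in ISM1-KO, a log2 fold change of -1.88 (SE 0.287, adjusted p = 0.0163). Adipoq, which encodes adiponectin, gave 559, 433 and 462 against 111, 82 and 254 counts, a log2 fold change of -1.72 (SE 0.338, adjusted p = 0.0343). Both were lowest in ISM1-KO replicates 1 and 2 and higher in replicate 3, as Cfd was. From staining with a type 2 marker, the paper assigned adiponectin secretion in lung to alveolar type 2 cells. Its other evidence was that adiponectin did not correlate with a macrophage marker. A human type 2 cell line also secreted more adiponectin when given recombinant ISM1. The paper also reported no significant change of adiponectin in adipose tissues of ISM1-/- mice. Whether the Adipoq reads here came from adipocytes was not tested. Without ISM1-KO replicate 1 or without replicate 2, 2 of the 12 were called, 3 without WT replicate 2 and 5 without WT replicate 1.

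The other called markers were Aqp7, the glycerol channel (log2 fold change -1.98, adjusted p = 0.077), the thyrotropin receptor gene Tshr (-1.93, adjusted p = 0.0163), the melanocortin receptor accessory gene Mrap (-1.65, adjusted p = 0.0409), the activin receptor gene Acvr1c (-1.56, adjusted p = 0.0504), the lipogenic regulator Thrsp (-1.55, adjusted p = 0.0766) and Adig (-1.38, adjusted p = 0.0449). Aqp7 and Tshr, like Lep, passed the filter on low counts through WT libraries alone. With 0.5 CPM required in at least 3 libraries, 7 adipocyte markers were called. Cidec, a lipid droplet fusion factor, had a log2 fold change of -0.90 (adjusted p = 0.0186), under the fold minimum. The remaining 3 are named because they differ from the list, after their values were seen. Cidea had -1.96 and did not pass (adjusted p = 0.133), while Slc7a10, with 1527, 1876 and 1718 against 2003, 1549 and 2035 counts, and Adrb3, with 785, 763 and 598 against 818, 617 and 661 counts, overlapped between genotypes (log2 fold change 0.11 and -0.06). ISM1-KO replicate 3 was the highest ISM1-KO library for 10 of the 12 markers, beside 40.4% of all genes tested.

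**Figure D3:**
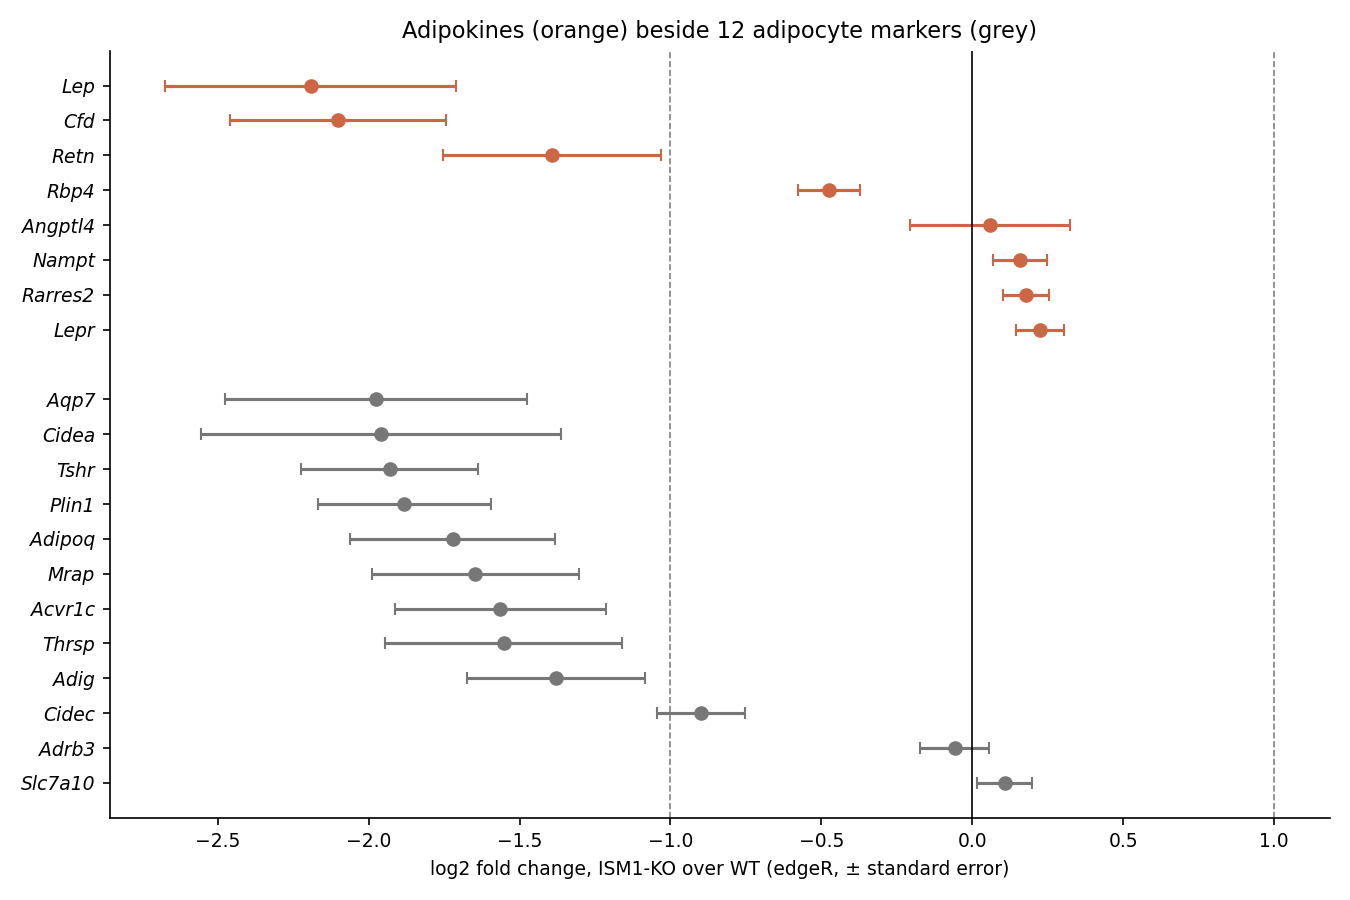
Log2 fold change of ISM1-KO over WT with its standard error (horizontal axis) for the 8 adipokine genes (orange, above) and the 12 adipocyte markers (grey, below), with dashed lines at a 2-fold change in either direction. Lep, Cfd and Retn lie between -2.19 and -1.39 and 9 of the 12 markers lie under -1 as well, while Rbp4 stands at -0.48 and the other 4 adipokines lie between 0.06 and 0.23.

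The reads of each member were divided by marker reads of the same library, which removes library size. These ratios use the values that chose the members, so they restate the same differences on another scale and are given without a test. Over the summed list of 12 markers, the ISM1-KO mean ratio was 0.325 of WT for Cfd, 0.308 for Lep, 0.556 for Retn, 1.06 for Rbp4 and between 1.47 and 1.73 for the other 4. That sum is held up by Slc7a10 and Adrb3, which made 39.4% to 51.3% of the list's reads in WT and 64.2% to 77.1% in ISM1-KO. Plin1 and Adipoq alone, whose own reads were lower in ISM1-KO, gave higher ratios for every member.

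There were 5.60, 7.01 and 9.36 Cfd reads per Plin1 read in WT and 4.61, 6.06 and 6.80 in ISM1-KO, so the genotypes overlapped and the mean ratio was 0.796 of WT. For Lep the WT ratios were 0.0477, 0.0597 and 0.0733, against 0.0168, 0.0648 and 0.0531 in ISM1-KO, again overlapping, at 0.745 of WT. For Retn they were 0.371, 0.318 and 0.329 against 0.336, 0.620 and 0.486, at 1.42 times WT. Members with a log2 fold change near that of Plin1 necessarily come out near the WT ratio, and members near 0 come out above it.

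Lepr reads per Plin1 read went from 6.84, 9.10 and 8.27 in WT to 47.6, 43.9 and 23.6 in ISM1-KO, a mean ratio of 4.75 times WT. The same ratio was 4.63 for Rarres2, 4.49 for Nampt and 3.76 for Angptl4, each without overlap. Rbp4 was intermediate, with 0.805, 1.27 and 1.38 reads per Plin1 read in WT and 3.82, 4.20 and 1.97 in ISM1-KO, or 2.89 times WT. With Adipoq as the reference the mean ratios were 0.762 for Cfd, 0.734 for Lep, 1.37 for Retn, 2.86 for Rbp4, 3.71 for Angptl4, 4.37 for Nampt, 4.50 for Rarres2 and 4.63 for Lepr. The outcome thus depended on the reference for every member. Over the summed list the ratios were 0.325 for Cfd, 0.308 for Lep and 0.556 for Retn. They were 1.06 for Rbp4, with overlapping genotypes, and between 1.47 and 1.73 for the others. Bulk libraries do not show which cells hold a transcript.

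**Figure D4:**
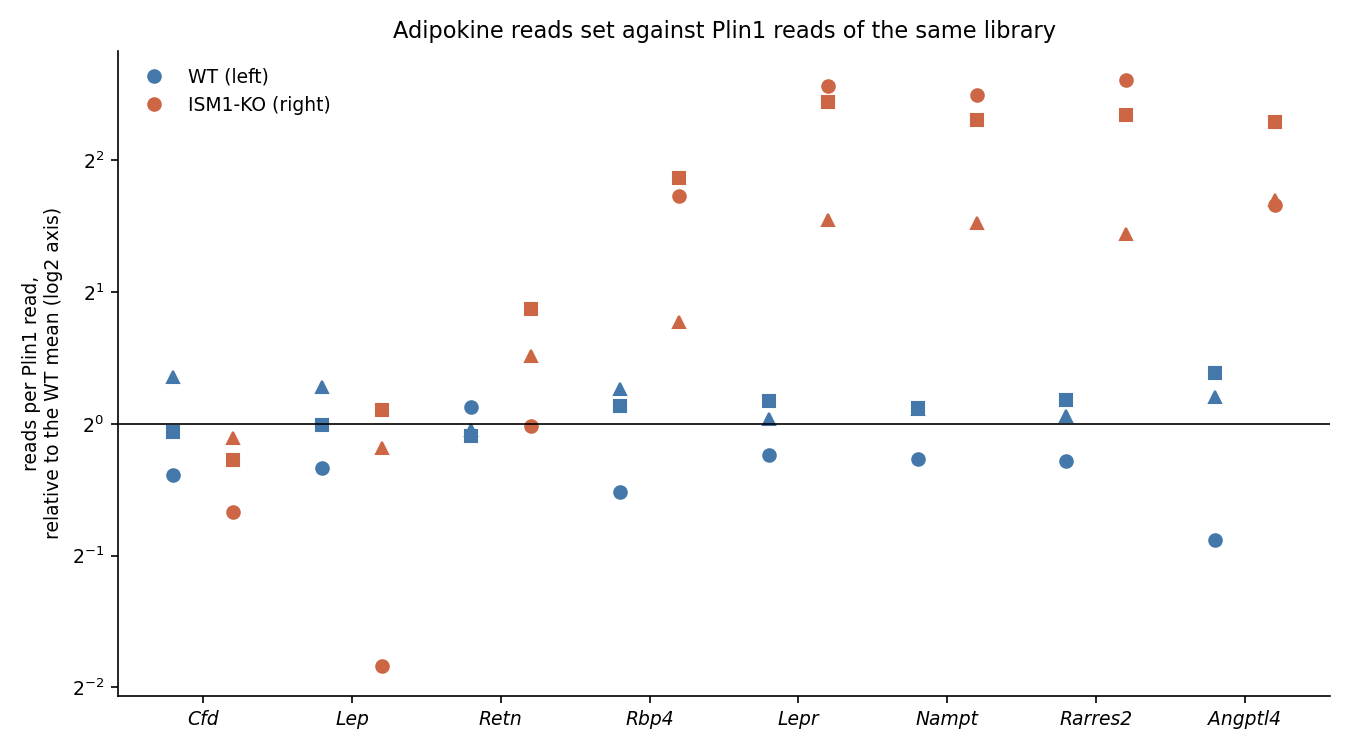
Reads of each adipokine per Plin1 read of the same library, relative to the WT mean, on a log2 axis (WT blue on the left, ISM1-KO orange on the right, symbol shape for the replicate number). Cfd, Lep and Retn overlap between genotypes, whereas all 3 ISM1-KO libraries lie above all 3 WT libraries for Rbp4, Lepr, Nampt, Rarres2 and Angptl4.

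The genes that act with each member were taken from 10 lists with 91 genes, of which 83 passed the filter on low counts. Of these, 2 were called, 1 lower and 1 higher, or 2.41% beside 0.567% of all genes (0 without WT replicate 2, 3 at most with another library left out), and the median log2 fold change was 0.012. The gene called lower passed the filter on low counts through WT libraries alone. In leptin signalling, 0 of 9 genes were called and 0 had an adjusted p under 0.1 in edgeR. Stat3, which carries the signal of Lepr to the nucleus, had the highest level (137 FPKM) and a log2 fold change of -0.00 (SE 0.0573), and Leprot, a regulator of receptor traffic that shares a locus with Lepr, had 0.09 (SE 0.0529, adjusted p = 0.469).

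For resistin, the receptor candidate Cap1 had the highest level of its list (199 FPKM) and a log2 fold change of 0.15 (adjusted p = 0.247). The paralogs of Retn behaved unlike it. Retnla, known from alternatively activated macrophages, had 1447, 1773 and 1438 reads in WT against 3743, 1092 and 1542 in ISM1-KO, so 1 library alone stood high and the log2 fold change of 0.40 had an adjusted p of 0.607. Retnlg, a neutrophil transcript, gave 98, 150 and 84 against 326, 194 and 111 counts (log2 fold change 0.90, adjusted p = 0.201), and ISM1-KO replicates 1 and 2, its highest libraries, were also those with the highest summed neutrophil markers (136 and 115 CPM). Retnlb had 1 count in 1 library and was not tested.

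Adipsin cleaves factor B, the product of Cfb, once factor B is bound to a fragment of C3. C3 was the most abundant gene of the alternative complement pathway list (538 FPKM) and had a log2 fold change of -0.04 (SE 0.0839, adjusted p = 0.879), while Cfb was scarce, at 1.27 ± 0.394 and 1.42 ± 0.342 CPM (SD, n = 3 each), with 0.16 (adjusted p = 0.847). None of the 9 genes of this list was called. Of the chemerin receptors, Cmklr1 (130 FPKM) had 161 ± 17.1 and 143 ± 7.15 CPM, a log2 fold change of -0.17 (adjusted p = 0.339), and Ccrl2 had -0.00 (adjusted p = 0.999). Gpr1, with 3 counts at most in any library, was not tested.

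In retinol transport, Ttr, which holds Rbp4 in plasma, had no count in any library, and the receptor gene Stra6 stood at 0.429 ± 0.134 and 0.429 ± 0.216 CPM. In this list 0 of 6 genes were called by edgeR. None of 11 genes of NAD metabolism was called either, with Parp1 the most abundant (64.8 FPKM, log2 fold change 0.15, adjusted p = 0.245). Lpl, the lipase that ANGPTL4 inhibits, had 230 ± 32.7 and 185 ± 33.2 CPM and overlapping genotypes (log2 fold change -0.32, adjusted p = 0.271), and Gpihbp1, which anchors it on capillaries and was the most abundant of its list (123 FPKM), had -0.02 (adjusted p = 0.932). Over these 7 pathways 0 of 48 genes had an adjusted p under 0.1 in edgeR and 10 had an unadjusted p under 0.05. The share of all genes under an unadjusted p of 0.05 was not counted, so the 10 have no background beside them. DESeq2 called none of them and gave 2 an adjusted p under 0.1, Retnlg and the retinol-esterifying enzyme gene Lrat, named here after their values were seen.

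Angptl4 was set beside genes that respond to the same stimuli. None of 8 fasting targets of PPAR was called by edgeR or DESeq2 (3 had an unadjusted p under 0.05 in edgeR), and Plin2, the most abundant (113 FPKM), had a log2 fold change of -0.01 (adjusted p = 0.965). In the glucocorticoid list Zbtb16, a transcription factor gene, was the only one called, with 874, 545 and 510 reads in WT against 2483, 2530 and 11147 (log2 fold change 3.06, adjusted p = 0.0297). Tsc22d3, the most abundant (95.5 FPKM), gave 3793, 6841 and 7838 against 4928, 4203 and 9443 counts, with a log2 fold change of 0.00. Like Angptl4, it was lowest in WT replicate 1 among the WT libraries and highest in ISM1-KO replicate 3. The summed list gave 455, 681 and 729 CPM in WT and 565, 557 and 1069 CPM in ISM1-KO. It too was lowest in WT replicate 1 and highest in ISM1-KO replicate 3. The likeness was partial, since the lowest ISM1-KO library was replicate 2 for the glucocorticoid sum and replicate 1 for Angptl4. The summed fasting targets gave 345, 393 and 392 CPM in WT and 337, 384 and 391 CPM in ISM1-KO. Within each genotype this was the library order of Angptl4. Unlike Angptl4, their highest library was WT replicate 2, and single targets differed, with Pdk4 lowest of the WT libraries in replicate 2. Within WT, Zbtb16 was highest in replicate 1. The part of these levels in the spread of Angptl4 was not tested.

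**Figure D5:**
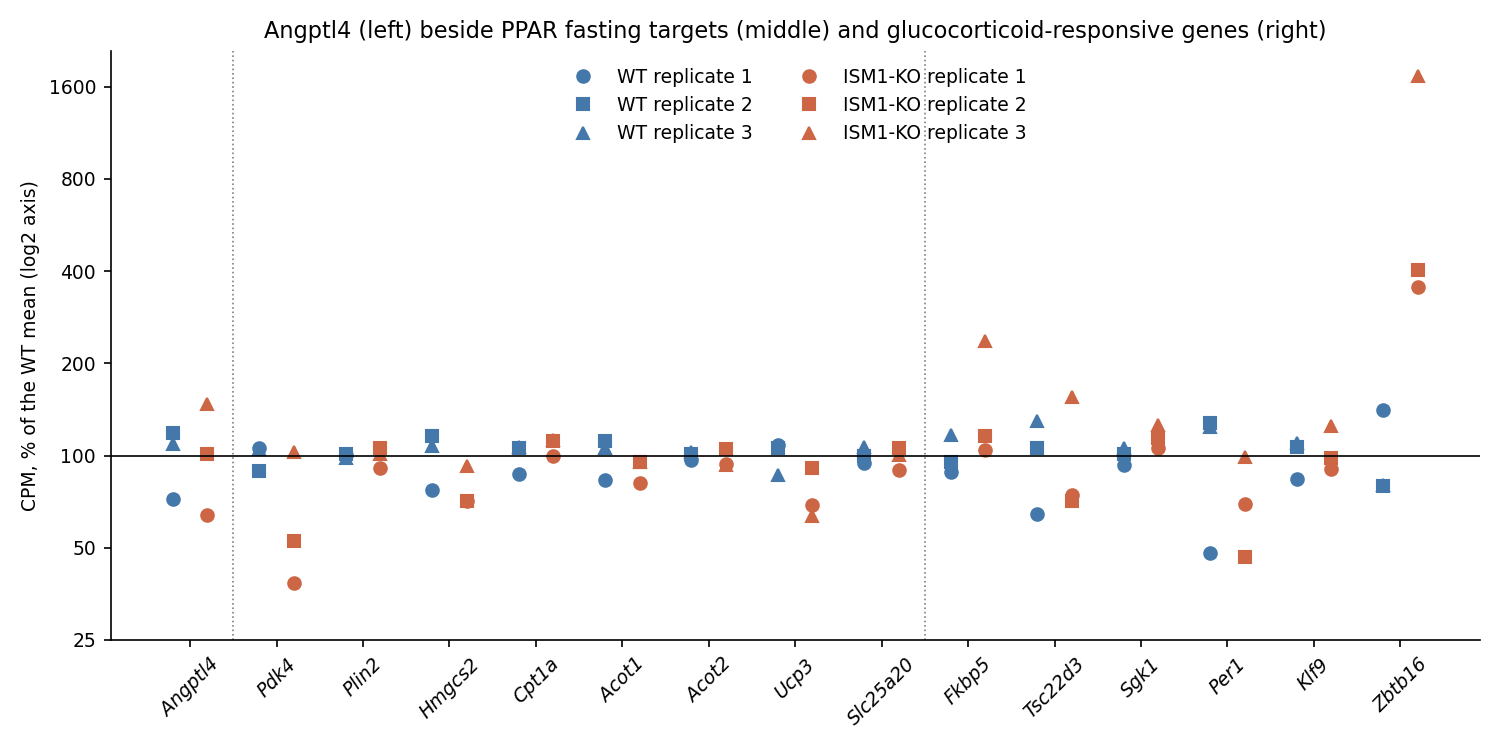
CPM of Angptl4, the 8 PPAR fasting targets and the 6 glucocorticoid-responsive genes, each as a percentage of its own WT mean, on a log2 axis (WT blue on the left, ISM1-KO orange on the right, symbol shape for the replicate number). ISM1-KO replicate 3 reaches 148% for Angptl4, 155% for Tsc22d3 and 1732% for Zbtb16, while most fasting targets lie near 100% in every library.

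Among 24 other adipokine genes, 21 were tested and 1 was called. Sfrp5, a secreted inhibitor of Wnt signals, had 101, 30 and 25 reads in WT against 7, 17 and 9 (log2 fold change -2.26, SE 0.621, adjusted p = 0.0998), a call close to the threshold with WT replicate 1 far above the other libraries. Like Lep, Sfrp5 passed the filter on low counts through WT libraries alone. DESeq2 gave 2 genes of this list an adjusted p under 0.1, Sfrp5 and C1qtnf3. The latter, named after its values were seen, was higher in ISM1-KO without overlap and did not pass in edgeR (log2 fold change 0.81, adjusted p = 0.108). Vegfa was the most abundant of them (1114 FPKM) and had a log2 fold change of 0.14 (adjusted p = 0.292).

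The genes whose deviations from their genotype mean were most like those of a member over the 6 libraries were found by Pearson's r of log2 CPM among 15869 genes. They were Nars, B530045E10Rik and Yae1d1 for Cfd, Sprtn, Pifo and Dpep1 for Lep, 1500011B03Rik, Kif5c and Fgd5 for Retn, Cdk6, Pwwp2a and Gprasp1 for Lepr, and A430108G06Rik, Gm14325 and Enox2 for Nampt. For Rbp4 they were BC031181, Upp2 and Snupn, for Angptl4 Sec14l2, Atf4 and Leng1, and for Rarres2 Plcd3, Vgll3 and Inpp5d. All 24 values of r were at least 0.993. With 6 libraries and this many genes, high values of r arise readily. None of these genes was on the marker or partner lists, and with Spearman's rank correlation 1 of the 24 was named again.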

How the data were processed

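RNA was measured in 3 WT and 3 ISM1-KO lungs, 1 library each, grouped by genotype as the labels give it. The study treats the libraries of a genotype as biological replicates. Strand-specific libraries of poly-A RNA were sequenced in read pairs, and the authors mapped the reads to GRCm38 with STAR. They deposited raw read counts per gene, without normalization, and FPKM, which divide the counts by the library total and a length. The counting program, annotation and strand setting are not given in the sources used here.

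CPM, fold changes and tests were computed from the counts in R 4.3.3 with edgeR 4.0.16 (TMM, estimateDisp, glmQLFit, glmQLFTest, no covariates) on genes with at least 0.5 CPM in 1 library or more. Adjusted p-values are Benjamini-Hochberg over all 18689 genes tested. DESeq2 1.42.0, RLE size factors, other filters and thresholds, a replicate block and the omission of each library were alternatives. Total counts of 37606133 to 42345042 per library limit precision most for Lep. The members and lists were chosen with earlier results of these data known. Named were all members, list genes that were called or had an adjusted p under 0.1, the most abundant gene of each list, direct partners and paralogs, genes that overlap a member, and the 3 genes most like each member where the mean reached 1 CPM. One further gene that this rule names is not reported here. Upstream sequences are from RefSeq.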

Additional observations from a re-analysis of the deposited data

How the results depend on the processing

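Of the 95 alternative values of the members' log2 fold changes, 90 lay within 1 standard error of the reported value, and the 5 that moved came from leaving out ISM1-KO replicate 3 (-2.79 for Cfd, -2.90 for Lep, -1.90 for Retn, 0.06 for Nampt and -0.28 for Angptl4). Leaving out 1 library at a time, the members called ranged from 1 to 3, with 1 when WT replicate 2 or 3 or ISM1-KO replicate 1 or 2 was left out, 2 without WT replicate 1 and 3 without ISM1-KO replicate 3. The same fits called 2 to 9 of the adipocyte markers (8 in the reported fit), with 2 without ISM1-KO replicate 1 or 2, 3 without WT replicate 2 and 5 without WT replicate 1, and 0 to 3 of the partner genes (2 in the reported fit), with 0 without WT replicate 2. Over all genes they called 31 to 188, against 106, with 31 without ISM1-KO replicate 1, 38 without ISM1-KO replicate 2, 41 without WT replicate 2, 62 without WT replicate 3 and 188 without ISM1-KO replicate 3. A mean above 2 CPM gave 37 genes in all, 3 adipocyte markers and 1 partner gene. This filter leaves untested Lep, the partner gene Sfrp5 and the adipocyte markers Cidea, Acvr1c, Mrap, Aqp7, Tshr and Adig. No filter on low counts gave 293 genes in all and 4 partner genes. An adjusted p under 0.05 gave 51 genes in all, 5 adipocyte markers and 1 partner gene, and no fold minimum gave 882 genes. RLE size factors gave 1 partner gene. DESeq2 called 115 genes and 2 members. The cause of these shifts was not tested.

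The order of levels kept 4 of 8 places with CPM per kilobase of the deposited gene length. The ratios to the summed adipocyte list moved with either single reference, as given above. Of the 24 genes most like a member, 1 was named again with Spearman's correlation and 22 with a prior count of 0.5. The deviations of samples that share a replicate number had an r of -0.00346, 0.00563 and 0.152 for numbers 1 to 3, which is over 0.1 for number 3 alone, so the numbers were not taken to pair the samples, and with the replicate block 3 members, 9 adipocyte markers, 2 partner genes and 130 genes in all were called. Depth limits Lep most, at 2 to 37 reads per library.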
